A study of Bos taurus with 3 samples.

Results

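Respiratory chain genes of the rumen epithelium were described as 2 arms, one encoded in the nucleus and one in the mitochondrial genome. The members were chosen by name. They comprised every gene of the named expression table that encodes an NDUFA, NDUFB, NDUFC, NDUFS or NDUFV subunit of complex I, a UQCR subunit or cytochrome c1 of complex III, a COX4 to COX8 subunit of complex IV, an ATP5 subunit of complex V, or a subunit of succinate dehydrogenase, together with the 13 protein genes of the mitochondrial genome. This gave 84 nuclear and 13 mitochondrial genes, 97 of the 19533 named genes. The cells were rumen epithelial cells of 3 adult, lactating Holstein dairy cows without any treatment, 1 droplet library per cow, each cow being 1 animal. Enzymes and a dead-cell removal step gave the suspension, and the study describes the cells as the epithelial ones of an earlier data set of the rumen. The libraries held 3369, 7401 and 9958 cells in cows 1, 2 and 3, with 38912809, 94856658 and 104189434 UMIs (unique molecular identifiers, each standing for 1 captured transcript). The number of cell barcodes found in more than 1 library was 35.

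The respiratory chain passes electrons from NADH (complex I) and succinate (complex II) through complex III and cytochrome c to complex IV, where oxygen is reduced, and the protons pumped on the way drive ATP synthase (complex V). Complexes I, III, IV and V are mosaics, since the mitochondrial genome encodes a few hydrophobic core subunits and the nucleus encodes all the others. Complex II is wholly nuclear. Rumen epithelium absorbs volatile fatty acids and metabolizes part of them, above all butyrate, in its mitochondria. Some subunits of complexes IV and V exist as isoforms from separate genes, and COX6A2, COX7A1 and COX8B are known as the isoforms of heart and skeletal muscle.

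No file gives a cell type for each cell, so 5 cell states were set by the UMIs of 4 genes. DLK2 encodes a membrane protein related to Notch ligands, GJA1 the gap junction protein connexin 43, IGFBP5 a secreted binding protein for insulin-like growth factors, and TOP2A a topoisomerase of dividing cells. TOP2A+ cells (1665) had at least 2 TOP2A UMIs, whatever the other 3 genes, so that cells with GJA1, IGFBP5 or DLK2 were among them. DLK2+ cells (3147) had DLK2 and none of the other 3 genes. Among cells without TOP2A and DLK2, GJA1+ IGFBP5+ cells (1107) had both remaining genes, GJA1+ IGFBP5- cells (296) had GJA1 alone, and IGFBP5+ GJA1- cells (5901) had IGFBP5 alone. The other cells had a mixed set (5053) or no marker (3559), were described and were not tested. Free RNA in droplets can give single UMIs of a marker, and its level was not measured here. With GJA1, IGFBP5 and DLK2 required at 2 UMIs and TOP2A at 3, the counts of members called higher than in DLK2+ cells, described below, were 86, 78, 80 and 68 for GJA1+ IGFBP5+, GJA1+ IGFBP5-, IGFBP5+ GJA1- and TOP2A+ cells, against 86, 77, 80 and 70. The 6 keratinocyte markers summed to between 77.2 ± 28.5 and 135 ± 75.2 UMIs per 10000 in the 5 states (mean ± SD, n = 3 cows, here and below). TOP2A set the states and is left out of the proliferation markers, of which the 5 others summed to 15.7 ± 4.48 in TOP2A+ cells and to 1.04 ± 0.611 or less in the other tested states. The sums of the fibroblast, endothelial and muscle lists were at or below 0.0855 per 10000 in every tested state. The sum of the immune list was at or below 0.438. Of the 5 muscle genes in the data, only MYH11 and TAGLN were at 0 in DLK2+ and GJA1+ IGFBP5+ cells. The immune list stood at 0.586, 0.548 and 0.181 in the DLK2+ cells of cows 1, 2 and 3 and at 0.141, 0.203 and 0.0755 in the GJA1+ IGFBP5+ cells. Of its 6 genes only MS4A1 was at 0 in both states, and the part of the immune list in the results was not tested.

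Both arms stood lowest in DLK2+ cells. The nuclear arm held 189, 211 and 239 UMIs per 10000 UMIs in the DLK2+ cells of cows 1, 2 and 3, and 312, 350 and 400 in the GJA1+ IGFBP5+ cells. In TOP2A+ cells it held 259, 310 and 321, and in IGFBP5+ GJA1- cells 244, 268 and 299.8. In GJA1+ IGFBP5- cells it held 319, 340 and 389. In each cow, both GJA1+ states were above TOP2A+ cells, which were above IGFBP5+ GJA1- cells, and DLK2+ cells were last. GJA1+ IGFBP5+ cells exceeded the DLK2+ cells of the same cow 1.66 ± 0.0079 fold, while the levels of the 2 GJA1+ states differed by less than the spread between cows. Cells of no marker and of a mixed set lay between, at 243 ± 39.9 and 260 ± 29.7.

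The mitochondrial arm varied more between cows. It held 1245, 965 and 1103 UMIs per 10000 in the DLK2+ cells of cows 1, 2 and 3, and 2358, 1460 and 1542 in the GJA1+ IGFBP5+ cells. TOP2A+ cells had 2302, 1281 and 1325, IGFBP5+ GJA1- cells 1878, 1191 and 1312, and GJA1+ IGFBP5- cells 1704, 1405 and 1271. In these sums, cow 1 was the highest of the 3 in each state, and every other state was above the DLK2+ cells of its own cow. Over single cells this did not hold for the GJA1+ IGFBP5- cells of cow 1, in which the median share of UMIs in mitochondrial genes was 9.55%, against 10.5% in its DLK2+ cells, and 34.4% of these cells had a share under 2%. Averaged over cells in place of sums, GJA1+ IGFBP5- cells exceeded DLK2+ cells by 198 per 10000, against 356 with sums, 490.0 without the cells under 2% and 659 with cells thinned to 5000 UMIs. The ratio of GJA1+ IGFBP5+ to DLK2+ cells was 1.60 ± 0.26. The number of mitochondrial UMIs for each nuclear one was 6.60, 4.58 and 4.61 in the DLK2+ cells of cows 1, 2 and 3 and 7.55, 4.17 and 3.86 in the GJA1+ IGFBP5+ cells, higher in cow 1 and lower in cows 2 and 3. In GJA1+ IGFBP5- cells it was 5.34, 4.13 and 3.26, below the DLK2+ cells in each cow. An arm is a sum over chosen genes and was given no p, and an exact permutation of 3 pairs cannot go below p = 0.25.

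**Figure D1:**
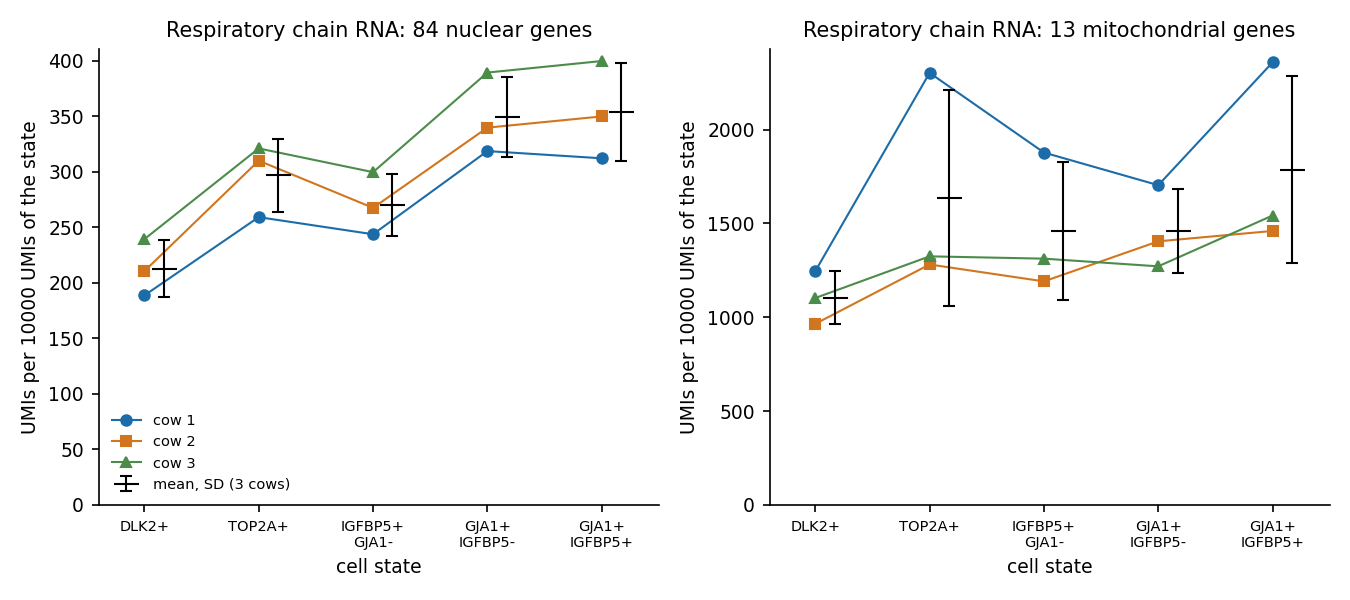
UMIs of the 84 nuclear genes (left) and of the 13 mitochondrial genes (right) per 10000 UMIs, by cell state on the horizontal axis. Coloured points joined by lines are the 3 cows, and black bars are their mean and SD. DLK2+ cells are the lowest in every cow for both arms, while cow 1 stands apart for the mitochondrial arm, with 2302 in TOP2A+ cells against 1281 and 1325 in the other cows.

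In the plot of both arms by state, the lines of the 3 cows run nearly parallel on the nuclear side. Depth moved with these levels. DLK2+ cells had medians of 7499, 9338 and 7556 UMIs per cell, and GJA1+ IGFBP5+ cells 17560.5, 18227 and 13669. Stress and immediate-early genes (8 listed) together stood at 76.4 ± 42.3 per 10000 in DLK2+ cells and at 34.8 ± 18.7 in GJA1+ IGFBP5+ cells. The part of the stress genes in the results was not tested. With cells thinned to 5000 UMIs, and the shallower ones left out (19210 of 20728 cells remained), the count of respiratory chain genes called higher in GJA1+ IGFBP5+ cells was 85, against 86 without thinning. Thinning evens the UMIs drawn per cell and cannot part depth from cell state. Over single cells, Spearman rho between depth and the nuclear share was 0.42, 0.45 and 0.58 in the DLK2+ cells of cows 1, 2 and 3. It was 0.37, 0.15 and 0.14 in their GJA1+ IGFBP5+ cells. The part of depth was not tested.

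Each gene was tested on UMIs summed per cow and state, with the cow as a block, by the quasi-likelihood F test of edgeR, and p was adjusted by Benjamini and Hochberg's method over 10373 genes. Calls needed a log2 fold change beyond 0.25 in either direction with an adjusted p under 0.05. Fold changes are after TMM normalization, which centres on the bulk of genes, so they differ from ratios of levels per 10000 UMIs. Of the 97 members, 93 passed the filter on low counts. The 4 others were NDUFA4L2, COX4I2, COX6A2 and COX7B2, isoform genes known from other tissues, with 17, 5, 1 and 98 UMIs in all 20728 cells. The 4 tests against DLK2+ cells share the DLK2+ sums and are not independent of each other.

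In GJA1+ IGFBP5+ against DLK2+ cells, nearly the whole chain was higher. Of the 93 genes tested, 86 were called higher and 3 lower, where 23.3% of all genes tested were called higher and 24.5% lower. The median log2 fold change was 0.93 over the members and -0.044 over all genes. All called members had the same direction in the 3 cows. The exceptions were few. COX7A1, ATP5MC2 and ND6 were lower, and COX7A2L, NDUFS5, NDUFB10 and COX6B2 did not pass the test (log2 fold changes of -0.15, -0.10, 0.02 and 0.04). Scaling to total counts alone moved the median of all genes to -0.24 and left 79 members higher and 5 lower, NDUFS5 and COX7A2L being the 2 added ones, while all genes then split into 1637 higher and 3739 lower in place of 2417 and 2540. Without the cow in the model, 47 members were higher and none of the 93 lower by edgeR, with 65 at an unadjusted p under 0.05.

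By complex, the summed nuclear genes were higher in GJA1+ IGFBP5+ than in DLK2+ cells for all 5 complexes. The summed nuclear genes of complex IV stood at 49.7 ± 6.31 per 10000 in DLK2+ and 94.3 ± 7.02 in GJA1+ IGFBP5+ cells, a ratio within cows of 1.90 ± 0.10. Without COX8B the sums were 49.0 ± 6.93 and 83.2 ± 14.6 and the ratio 1.69 ± 0.073, a value added after the level of COX8B was seen. The ratio was 1.78 ± 0.039 for complex III, 1.61 ± 0.037 for complex V, 1.50 ± 0.066 for complex I and 1.32 ± 0.0078 for complex II. The order of these ratios was not tested. On the mitochondrial side, CYTB, the single subunit of complex III encoded there, had a ratio of 2.00 ± 0.56 and the genes of complex IV one of 1.81 ± 0.43, against 1.27 ± 0.11 for complex I and 1.28 ± 0.083 for complex V.

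**Figure D2:**
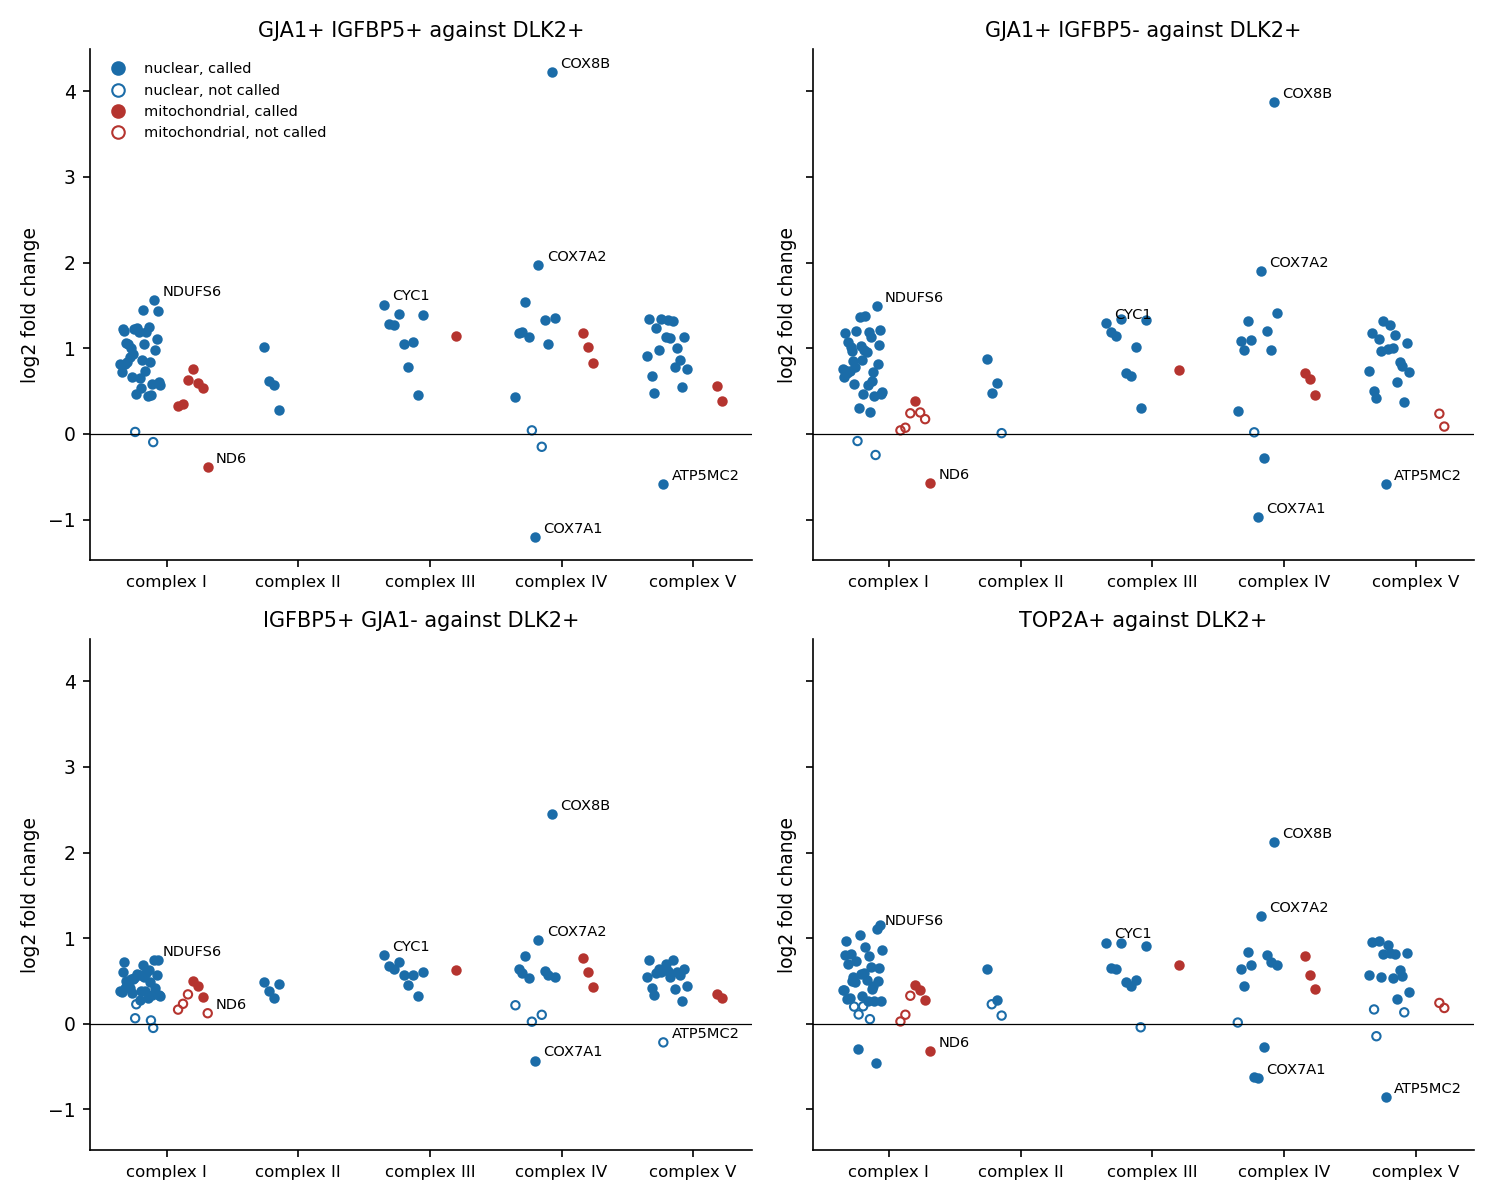
Log2 fold change of each member against DLK2+ cells in 4 cell states, 1 panel per state, grouped by complex along the horizontal axis. Blue points are nuclear genes and red points mitochondrial genes, and filled points were called. In GJA1+ IGFBP5+ cells 86 genes are filled above 0 and 3 below it, and COX8B lies far above all others in each panel.

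The plot of fold changes by complex shows a band of nuclear genes near 1 for GJA1+ IGFBP5+ cells, with COX8B above and COX7A1 and ATP5MC2 below it. In complex I, 34 of 36 nuclear genes were higher and none lower, the other 2 being NDUFS5 and NDUFB10. NDUFS6, a zinc-binding accessory subunit, held 0.899, 1.23 and 1.23 UMIs per 10000 in the DLK2+ cells of cows 1, 2 and 3 and 2.37, 2.99 and 3.27 in the GJA1+ IGFBP5+ cells, so that the groups did not overlap. Its log2 fold change was 1.56 (SE 0.09, adjusted p = 1.5e-13, edgeR). NDUFV1, the core subunit that takes electrons from NADH, rose by 1.44 (SE 0.10) on the log2 scale. NDUFA12, an accessory subunit with a mean of only 0.0338 UMIs per 10000 in DLK2+ cells, had a log2 fold change of 1.2 with a larger SE of 0.27.

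All 4 genes of complex II were higher. SDHA, the flavoprotein that oxidizes succinate, held 1.47, 1.43 and 1.62 UMIs per 10000 in DLK2+ cells and 2.39, 2.65 and 2.89 in GJA1+ IGFBP5+ cells, without overlap. Its log2 fold change was 1.01 (SE 0.08, adjusted p = 8.3e-11, edgeR). The iron-sulphur subunit SDHB rose by 0.61 (SE 0.08) and the membrane anchors SDHC and SDHD by 0.58 (SE 0.09) and 0.28 (SE 0.09), the call of SDHD being lost with total counts alone. In complex III, all 9 nuclear genes were higher. CYC1, cytochrome c1, held 1.77, 2.89 and 3.26 UMIs per 10000 in DLK2+ cells and 3.94, 7.26 and 8.87 in GJA1+ IGFBP5+ cells. The groups of CYC1 did not overlap, although cow 1 was low in both, and the log2 fold change was 1.51 (SE 0.09, adjusted p = 4.5e-13, edgeR). UQCRH, the hinge protein of complex III, changed least among them, at 0.46 (SE 0.08).

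Complex IV held the largest single change. COX8B stood at 1.49, 0.558 and 0.238 UMIs per 10000 in the DLK2+ cells of cows 1, 2 and 3, and at 19.7, 8.88 and 4.77 in the GJA1+ IGFBP5+ cells. Every GJA1+ IGFBP5+ value was above every DLK2+ value, and within cows the level was 16.4 ± 3.5 times as high. The log2 fold change was 4.22 (SE 0.21, adjusted p = 2.9e-08, edgeR), the highest of all members. TOP2A+ cells held 6.89, 2.64 and 0.941, IGFBP5+ GJA1- cells 8.20, 2.77 and 1.02, and GJA1+ IGFBP5- cells 17.5, 7.78 and 3.88. COX8B was therefore lowest in DLK2+ cells and highest in GJA1+ IGFBP5+ cells in each of the 3 cows.

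COX8B also differed between the cows by a wide margin. Its partner isoform COX8A, expressed in most tissues, held 1.96, 2.14 and 2.50 UMIs per 10000 in DLK2+ cells and 3.42, 3.93 and 4.57 in GJA1+ IGFBP5+ cells (log2 fold change 1.05, SE 0.09, adjusted p = 9.0e-11, edgeR). Cow 3 was highest for COX8A and lowest for COX8B. The number of COX8B UMIs for each COX8A UMI was 0.759, 0.261 and 0.0950 in the DLK2+ cells of cows 1, 2 and 3, and 5.76, 2.26 and 1.04 in the GJA1+ IGFBP5+ cells. The order of cows 1, 2 and 3 in this ratio was the same in all 7 groups of cells set by the markers. In the GJA1+ cells almost without mitochondrial RNA, described below, COX8B held 27.5, 5.51 and 5.89 per 10000 UMIs of all other genes, so that cow 3, with 32 such cells, was above cow 2, with 5. With 3 cows, the difference between animals has no replicate. The muscle marker list stood at 0.0238, 0.0528 and 0.0449 per 10000 in the DLK2+ cells and 0.0405, 0.0874 and 0.0773 in the GJA1+ IGFBP5+ cells of cows 1, 2 and 3. It was higher in the GJA1+ IGFBP5+ cells of each cow and lowest in cow 1 in both states, and its part was not tested.

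The COX7A isoforms went in opposite directions. COX7A2, the form of liver and most other tissues, held 2.44, 2.57 and 3.43 UMIs per 10000 in DLK2+ cells and 8.17, 9.31 and 11.3 in GJA1+ IGFBP5+ cells, and its log2 fold change was 1.97 (SE 0.09, adjusted p = 2.8e-15, edgeR). COX7A1, the muscle form, held 0.781, 0.192 and 0.495 in DLK2+ cells and 0.230, 0.101 and 0.193 in GJA1+ IGFBP5+ cells, a log2 fold change of -1.20 (SE 0.12, adjusted p = 3.8e-09, edgeR). COX7A1 was lower in each cow, although the values of the 2 states overlap across cows. The number of COX7A1 UMIs for each COX7A2 UMI went from 0.180 ± 0.126 to 0.0187 ± 0.00874. COX7A2L, a related protein that joins complexes III and IV into supercomplexes, held 2.93, 4.44 and 5.10 in DLK2+ cells and 2.29, 3.54 and 3.97 in GJA1+ IGFBP5+ cells, and did not pass the test (log2 fold change -0.15, adjusted p = 0.12, edgeR).

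Among the other subunits of complex IV, COX6A1, the general isoform of COX6A, rose by 1.54 (SE 0.09) on the log2 scale. COX7B rose by 1.33 (SE 0.09), COX6B1 by 1.14 (SE 0.08) and COX4I1 by 0.43 (SE 0.08), a call that was lost with total counts alone. NDUFA4, first assigned to complex I and now to complex IV, rose by 1.35 (SE 0.10). COX6B2, an isoform known from testis, stood at 0.0527 ± 0.0282 UMIs per 10000 in DLK2+ cells and 0.0451 ± 0.0128 in GJA1+ IGFBP5+ cells.

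**Figure D3:**
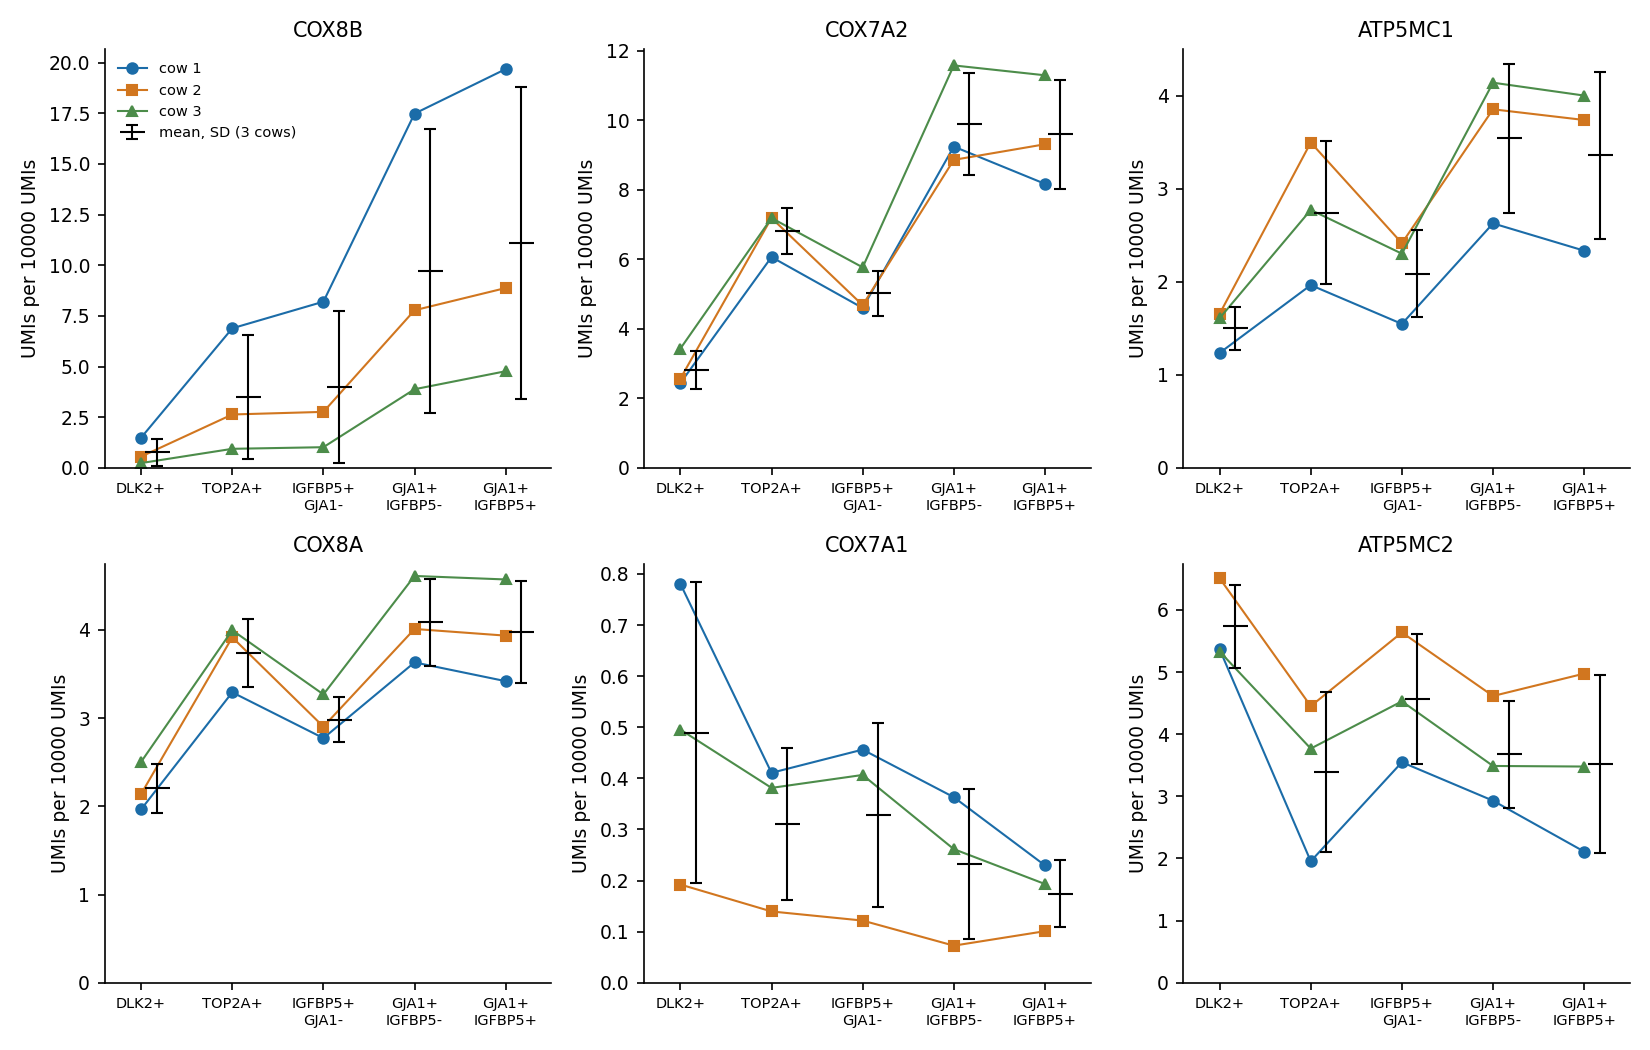
UMIs per 10000 UMIs of 3 pairs of isoform genes by cell state, with COX8B, COX7A2 and ATP5MC1 above COX8A, COX7A1 and ATP5MC2. Coloured points joined by lines are the 3 cows, and black bars are their mean and SD. COX7A1 and ATP5MC2 are highest in the DLK2+ cells of every cow, where the other 4 genes are lowest.

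In complex V, 17 of the 18 nuclear genes were higher, and the 1 lower gene was an isoform. ATP5MC1, ATP5MC2 and ATP5MC3 encode precursors of the same mature c subunit, which forms the ring that rotates in the membrane. ATP5MC2 held 5.37, 6.51 and 5.33 UMIs per 10000 in the DLK2+ cells of cows 1, 2 and 3 and 2.11, 4.98 and 3.48 in the GJA1+ IGFBP5+ cells. These values did not overlap, and the log2 fold change was -0.58 (SE 0.12, adjusted p = 0.00058, edgeR). ATP5MC1 rose from 1.50 ± 0.231 to 3.36 ± 0.897 (log2 fold change 1.34, SE 0.10, adjusted p = 5.7e-12, edgeR), and ATP5MC3 from 5.21 ± 1.46 to 10.1 ± 3.69 (log2 fold change 1.13, SE 0.09, adjusted p = 4.9e-11, edgeR). ATP5IF1, the inhibitor that blocks the reverse reaction of the enzyme, rose by 0.98 (SE 0.08) on the log2 scale. In the plot of isoform pairs by state, the falling lines are those of COX7A1 and ATP5MC2.

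The log2 fold changes of the mitochondrial genes ran from -0.38 to 1.18. In GJA1+ IGFBP5+ against DLK2+ cells, 12 of 13 were called higher and ND6 lower. COX1, the catalytic subunit of complex IV, held 210, 200.3 and 238 UMIs per 10000 in DLK2+ cells and 549, 407 and 364 in GJA1+ IGFBP5+ cells, and rose by 1.18 (SE 0.21, adjusted p = 0.0015, edgeR) on the log2 scale. CYTB rose by 1.14 (SE 0.19), COX2 by 1.02 (SE 0.18) and COX3 by 0.83 (SE 0.13). Of the complex I subunits, ND4 rose by 0.76 (SE 0.11), ND3 by 0.63 (SE 0.13), ND4L by 0.60 (SE 0.10), ND5 by 0.54 (SE 0.10), ND2 by 0.35 (SE 0.09) and ND1 by 0.32 (SE 0.11). The ATP synthase subunits ATP6 and ATP8 rose by 0.55 (SE 0.09) and 0.39 (SE 0.10). The calls of ND1, ND2 and ATP8 were lost with total counts alone. The transcripts of ATP8 and ATP6 overlap, as do those of ND4L and ND4, so their reads cannot be told apart where they overlap.

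ND6 is the only protein gene transcribed from the other strand of the mitochondrial genome, and it went against the rest. It held 4.59, 0.706 and 2.05 UMIs per 10000 in the DLK2+ cells of cows 1, 2 and 3 and 2.81, 0.559 and 1.27 in the GJA1+ IGFBP5+ cells. ND6 was lower in each cow, with cow 1 highest and cow 2 lowest in both states, and the log2 fold change was -0.38 (SE 0.09, adjusted p = 0.00057, edgeR). The number of ND6 UMIs for each UMI of ND5, its neighbour on the other strand, was 0.132 ± 0.0901 in DLK2+ cells and 0.0644 ± 0.0364 in GJA1+ IGFBP5+ cells. The strand setting of the counting is not given in the sources used here, so reads of ND6 and antisense reads from its locus may not be told apart.

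**Figure D4:**
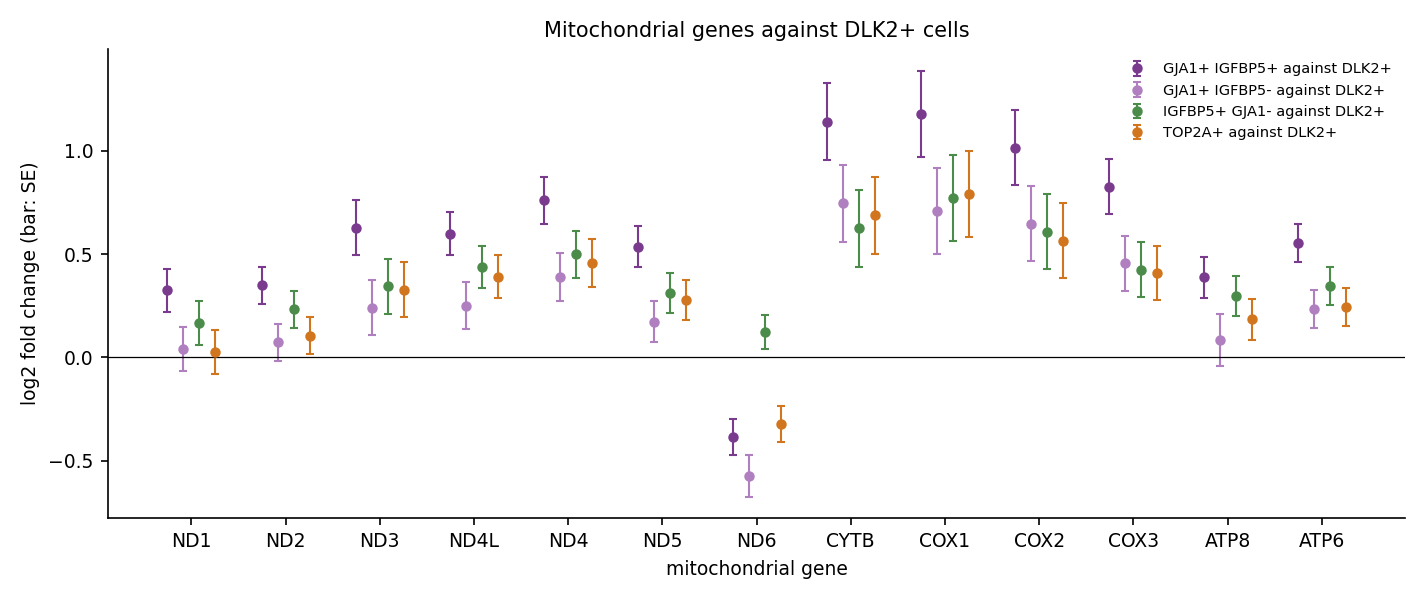
Log2 fold change against DLK2+ cells of the 13 mitochondrial genes, ordered by complex, in 4 cell states given by colour, with bars of 1 SE. COX1 and CYTB are the highest in GJA1+ IGFBP5+ cells, at 1.18 and 1.14, and ND6 is below 0 in all states but IGFBP5+ GJA1- cells.

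GJA1+ IGFBP5- cells had 77 members higher and 4 lower than DLK2+ cells, where 16.6% of all genes tested were called higher and 16% lower. Of the nuclear genes, 72 of 80 were higher and 3 lower. Of the mitochondrial genes, only COX1, COX2, COX3, CYTB and ND4 of 13 passed the test in the upward direction, with log2 fold changes between 0.39 and 0.75. ND6 was lower (-0.57, SE 0.10), as were COX7A1 (-0.97, SE 0.18), ATP5MC2 (-0.59, SE 0.13) and COX7A2L (-0.28, SE 0.09). COX8B (3.88, SE 0.21), COX7A2 (1.90, SE 0.10), NDUFS6 (1.49, SE 0.10), NDUFA4 (1.41, SE 0.12) and NDUFB7, a complex I accessory subunit (1.38, SE 0.09), rose the most. SDHD, at 0.01 (SE 0.10), did not pass. These were the fewest cells of any state, 96, 80 and 120 in cows 1, 2 and 3, and cells with under 2% of their UMIs in mitochondrial genes made up 52 of the 296. Without such cells, 78 members were higher and 5 lower. The count fell to 33 higher with states set by clusters, of which only cow 1 had one of this kind, and to 41 without the cow in the model.

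The chain was also higher in cells with IGFBP5 and no GJA1. Of 93 members against DLK2+ cells, 80 were higher and 1, COX7A1 (-0.43, SE 0.10), was lower, where 10.3% of all genes tested were called higher and 8.2% lower. The median log2 fold change of the members was 0.50, and that of all genes -0.019. COX8B rose by 2.44 (SE 0.20), COX7A2 by 0.98 (SE 0.09), CYC1 by 0.80 (SE 0.09), COX6A1 by 0.80 (SE 0.09) and COX1 by 0.77 (SE 0.21) on the log2 scale. All 4 subunits of complex II were higher, between 0.30 and 0.49. ND6, at 0.12 (SE 0.08), and ATP5MC2, at -0.22 (SE 0.12), did not pass the test. Without the cow in the model, none of the 93 members passed by edgeR, with 35 at an unadjusted p under 0.05, and without cow 1 the call of COX7A1 was lost.

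Most of the chain was higher in dividing cells as well. In TOP2A+ against DLK2+ cells, 70 members were higher and 7 lower, where 22.9% of all genes tested were called higher and 23.1% lower. COX8B rose by 2.12 (SE 0.20), COX7A2 by 1.25 (SE 0.09), NDUFV1 by 1.15 (SE 0.10), NDUFS6 by 1.10 (SE 0.09) and NDUFB2, an accessory subunit of complex I, by 1.03 (SE 0.13). The 7 lower genes were ATP5MC2 (-0.86, SE 0.12), COX7A1 (-0.63, SE 0.11), COX6B2 (-0.62, SE 0.22), NDUFS5 (-0.45, SE 0.08), ND6 (-0.32, SE 0.09), NDUFB10 (-0.30, SE 0.08) and COX7A2L (-0.28, SE 0.08). ATP5MC2 held 5.37, 6.51 and 5.33 UMIs per 10000 in DLK2+ cells and 1.96, 4.45 and 3.77 in TOP2A+ cells, without overlap. The other 16 members were not called, with log2 fold changes between -0.14 and 0.33, and COX4I1, UQCRH, SDHB, SDHD, ND1, ND2, ND3, ATP6 and ATP8 were among them. Without cow 3, which held 1244 of the TOP2A+ cells, 3 members were lower, and without the cow in the model 25 were higher and none of the 93 lower by edgeR, with 43 at an unadjusted p under 0.05.

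Within GJA1+ cells, detection of IGFBP5 went with no called change among the members. GJA1+ IGFBP5- cells were shallower, with medians of 5123, 15433 and 12304.5 UMIs in cows 1, 2 and 3 against 17560.5, 18227 and 13669. IGFBP5 may thus have gone undetected in some of them, which was not tested. In GJA1+ IGFBP5+ against GJA1+ IGFBP5- cells, none of the 93 members was called by edgeR, 18 had an unadjusted p under 0.05, DESeq2 also called none of the 93, and 0.472% of all genes tested were called higher and 0.453% lower. The smallest adjusted p of a member was 0.058 (edgeR), of UQCRC1, a core protein of complex III. The log2 fold changes of the 80 nuclear genes ran from -0.27 to 0.47, with a median of 0.10 and 9 at an unadjusted p under 0.05. Those of the 13 mitochondrial genes ran from 0.19 to 0.47, with a median of 0.36 and also 9 at an unadjusted p under 0.05. ATP8 was higher in 2 of 3 cows, and the other mitochondrial genes in all 3. The median was 0.034 over all genes, and without cells under 2% of UMIs in mitochondrial genes that of the mitochondrial genes was 0.27, and with cells thinned to 5000 UMIs it was 0.17. With no filter on low counts 13 members were called higher, and with markers required at 2 UMIs or more, 2 were. Shares of all genes in these settings, and at an unadjusted p under 0.05, are not given here. These counts can therefore not be read as particular to the members.

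GJA1+ IGFBP5+ cells were also set directly against the IGFBP5+ GJA1- and the TOP2A+ cells, and most members were higher in both comparisons. These comparisons were added after the levels had been seen. Against IGFBP5+ GJA1- cells, 65 members were higher and 4 lower, where 15.8% of all genes tested were called higher and 14.3% lower. The nuclear arm gave 64 of these, and of the mitochondrial genes COX3 (0.40, SE 0.13) was higher and ND6 (-0.51, SE 0.09) lower. COX8B (1.78, SE 0.19), COX7A2 (0.99, SE 0.09), NDUFS6 (0.82, SE 0.09), NDUFA4 (0.80, SE 0.10) and UQCRQ, a small subunit of complex III (0.79, SE 0.08), rose the most, and COX7A1 (-0.78, SE 0.12), ATP5MC2 (-0.37, SE 0.12) and COX7A2L (-0.26, SE 0.08) were lower. With states set by clusters none of 94 members was called by edgeR, with 5 at an unadjusted p under 0.05, but only cow 3 had clusters of both states. Clusters were called positive relative to the highest level in their own cow, so a cluster of cow 1 with GJA1 at 4.89 per 10000 counted as GJA1-, while clusters of cow 2 with 1.2 and 1.48 counted as GJA1+. In that setting the log2 fold changes of NDUFA4 and COX3 were -0.12 and -0.41, and those of COX6A1 and ATP5IF1, also called here, -0.14 and -0.061.

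Against TOP2A+ cells, 75 members were higher and 2 lower, where 18.9% of all genes tested were called higher and 17.3% lower. The lower genes were COX7A1 (-0.57, SE 0.13) and NDUFV3, an accessory subunit of complex I (-0.30, SE 0.10). COX8B rose by 2.10 (SE 0.19), COX5B, a zinc-binding subunit of complex IV, by 0.74 (SE 0.08), and COX7A2 and COX6A1 by 0.71 (SE 0.09) each. COX6B2 rose by 0.67 (SE 0.24). This count rested on the scaling, since total counts alone moved the median of all genes from 0.0035 to -0.23, and then 27 members were higher and 3 lower, and all genes split into 957 higher and 3128 lower in place of 1958 and 1798. States set by clusters gave 16 members higher.

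Other genes of the pathway were counted from lists. Of 42 tested assembly factors, which build the complexes without being part of them, 20 were higher and 2 lower in GJA1+ IGFBP5+ than in DLK2+ cells, with a median log2 fold change of 0.37, where 23.3% of all genes tested were called higher and 24.5% lower. The complex IV factors COX14 (1.37, SE 0.09), PET100 (1.25, SE 0.10) and COA3 (1.17, SE 0.09) changed the most. The counts of 42 were 13 and 1 in GJA1+ IGFBP5- cells (16.6% and 16% of all genes), 10 and none in IGFBP5+ GJA1- cells (10.3% and 8.2%), and 15 and 3 in TOP2A+ cells (22.9% and 23.1%). Of 15 tested carriers and electron shuttles, 12 were higher and none of the 15 lower in GJA1+ IGFBP5+ cells, with CYCS, which encodes the cytochrome c that links complexes III and IV, at 2.59 (SE 0.25), ETFA, which carries electrons from fatty acid oxidation, at 1.13 (SE 0.10), and PHB, an inner membrane scaffold protein, at 1.01 (SE 0.11). In the other 3 states CYCS rose by 2.56 (SE 0.26), 1.2 (SE 0.24) and 1.70 (SE 0.25), in the order given above.

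A further list held genes that copy, transcribe and process the mitochondrial genome or regulate the biogenesis of mitochondria. Of 27 tested, 9 were higher and 3 lower in GJA1+ IGFBP5+ than in DLK2+ cells, with a median log2 fold change of 0.12, where 23.3% of all genes tested were called higher and 24.5% lower. ESRRA, a nuclear receptor that activates respiratory chain genes, rose by 1.50 (SE 0.09), FASTKD3, an RNA-binding protein of mitochondria, rose by 0.94 (SE 0.22), and NRF1, a transcription factor for nuclear respiratory genes, fell by 1.04 (SE 0.34) at low levels of 1.34 against 2.68 CPM (counts scaled by library size). The counts of 27 were 5 and none in GJA1+ IGFBP5-, 3 and none in IGFBP5+ GJA1-, and 6 and 3 in TOP2A+ cells. The shares called higher in these 3 states lay near those of all genes given above.

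A few GJA1+ cells had almost no mitochondrial RNA. Among GJA1+ cells without TOP2A and DLK2, 46, 5 and 32 cells in cows 1, 2 and 3 had under 2% of their UMIs in the 13 mitochondrial genes, against 424, 423 and 473 others. Cells under this limit are called mitochondria-poor for their RNA alone, and their content of mitochondria was not measured. The mitochondrial arm set this split and was not tested. The nuclear arm, given per 10000 UMIs of all other genes, held 413, 446 and 389 in these cells and 406, 407 and 469.7 in the others. Cows 1 and 2 were above and cow 3 below, so the direction differed between cows. The means were 416 ± 28.8 and 428 ± 36.5, and the fall in cow 3 was larger than either SD. The fit held 5 sums, since cow 2 had fewer than 10 such cells and entered with its other GJA1+ cells alone, so the comparison rests on cows 1 and 3. By edgeR, none of the 80 nuclear genes tested was called, 6 had an unadjusted p under 0.05, and DESeq2 called none of the 80, while 2.19% of all genes tested were called higher and 1.59% lower. This fit had 1 residual degree of freedom. COX6A1 had the smallest adjusted p among the isoform genes, with a log2 fold change of -0.82 (SE 0.28, adjusted p = 0.073, edgeR). The mitochondria-poor cells were shallow, with medians of 2819, 2057 and 4254 UMIs against 17303, 17985 and 13580. In them the keratinocyte gene KRT6A stood at 54.7, 22.9 and 162 per 10000 against 5.60, 8.86 and 19.9. BPIFA2C stood at 118, 18.8 and 148 against 5.21, 4.59 and 4.42, and the study names a subtype of GJA1-expressing spinous cells after this gene. The part of depth, of subtype and of differentiation in this comparison was not tested.

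**Figure D5:**
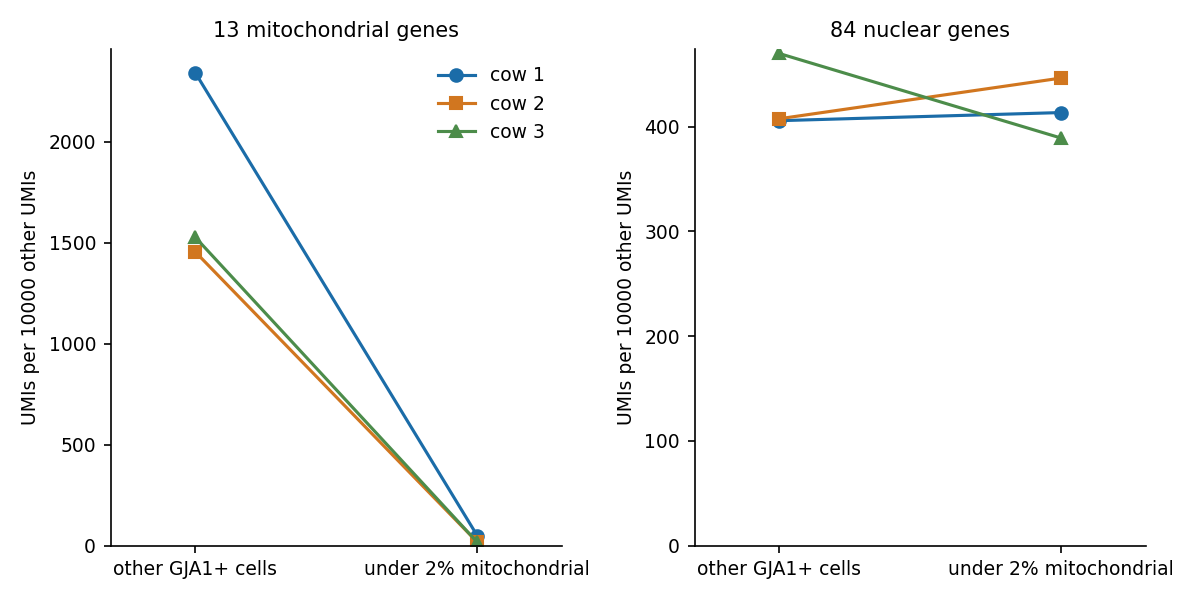
UMIs per 10000 UMIs of all other genes for the 13 mitochondrial genes (left) and the 84 nuclear genes (right) in GJA1+ cells, with lines joining the 2 groups of each cow. The mitochondrial arm defines the groups, the mitochondria-poor cells having under 2% of their UMIs in it. In cows 1, 2 and 3, the nuclear arm is at 413, 446 and 389 in these cells. It is at 406, 407 and 469.7 in the others, so that cow 3 alone is lower in the mitochondria-poor cells.

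The plot of mitochondria-poor cells shows both arms on axes that start at 0. Over the 15 sums of cow and state, the members whose level per 10000 UMIs was most like that of COX8B were ND4, NDUFA13, an accessory subunit of complex I, and COX1, with Spearman rho of 0.86, 0.86 and 0.81 among 92 genes compared. The 15 sums share 3 cows, and these values are a description.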

How the data were processed

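Single epithelial cells of the ventral rumen of 3 cows were measured with 3′ droplet chemistry, 1 library per cow. The authors made the counts with Cell Ranger 3.1.0, applied their filters on cells, ran a search for doublets, took the epithelial cells, and deposited the resulting UMI count of every gene per cell. Their filters set lower and upper limits on genes per cell and upper limits on UMIs and on the mitochondrial share. The last limit acts on the same RNA as the mitochondrial arm, and the part of these limits in the results was not tested. A second deposited table, in natural log units of 1 plus UMIs per 10000, gave the gene names and differed from that formula by under 1e-06. Whether the doublets found were removed is not given in the sources used here, and no doublets were called again. Barcode suffixes were taken as the library numbers that end the sample titles and so gave the cow. The sources used here do not state this match. No genome of the authors' assembly was used, so no position or sequence is given.

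UMIs were summed per cow and state (at least 10 cells) and tested in R 4.3.3 with edgeR 4.0.16 and limma 3.58.1 (TMM, filterByExpr, robust quasi-likelihood, cow as a block, Benjamini-Hochberg). The common biological coefficient of variation was 0.0842. The fit of mitochondria-poor cells left out the mitochondrial genes. Sums of the same cow pair the states because they come from 1 animal. After state means were removed, same-cow correlations lay between 0.34 and 0.82, and those of different cows between -0.64 and -0.066. Removing means over 3 cows itself pushes the correlations of different cows to negative values, so their sign is not a result. Simulated counts for GJA1+ IGFBP5+ against DLK2+ cells (10072 genes) gave calls for 93.9% of genes raised and 84% of genes lowered by 1 on the log2 scale, 50% and 40% of those raised and lowered by 0.5, and 0.081% of unchanged ones. The simulation used the common coefficient of variation for every gene and no difference between cows, so these shares may not hold for the data. Sums and figures used Python 3.11.15 with scanpy 1.11.5, pandas 2.3.3, scipy 1.17.1, numpy 2.4.6 and matplotlib 3.10.9.

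The members and lists were chosen with earlier results of these data known. Genes named singly are the mitochondrial genes, complex II, CYC1, isoform genes, UQCRH, ATP5IF1, and per comparison the 5 called members with the largest rise and fall in all 3 cows. NDUFV1, NDUFA12, UQCRC1, NDUFS5 and NDUFB10 were also named after their values were seen, where the rule did not already name them. Reads shared by near-identical copies of a gene could have been dropped or split by the counting. UMI counts come from transcript ends, so levels are not compared between genes, and UMI ratios of 2 genes are compared only across states and cows. Alternatives were DESeq2 1.42.0, its size factors, total counts alone, no filter, no cow term, each cow left out, markers at 2 UMIs or more (TOP2A at 3), cells thinned to 5000 UMIs (19210 were deep enough), clusters, and mitochondrial limits.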

Additional observations from a re-analysis of the deposited data

How the results depend on the processing

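The cow as a block was part of the model because each cow gave all states. Without the replicate block, the members called higher were 47, 41, 0 and 25 against DLK2+ cells for GJA1+ IGFBP5+, GJA1+ IGFBP5-, IGFBP5+ GJA1- and TOP2A+ cells, and 6 and 3 for GJA1+ IGFBP5+ against IGFBP5+ GJA1- and TOP2A+ cells, with 0 lower of 93 in each (edgeR, with 65, 57, 35, 43, 32 and 21 at an unadjusted p under 0.05). DESeq2 and its size factors moved no count between states by over 1.5 times. Apart from the splits with total counts given above, shares of all genes called in these settings are not given here. A loss or gain of calls over all genes can therefore not be told from one among the members.

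With total counts alone, 5 members were lower in GJA1+ IGFBP5+ than DLK2+ cells, and 27 were higher than in TOP2A+ cells. States from clusters gave only 11 of the 15 sums. GJA1+ IGFBP5+ clusters came from cows 2 and 3, IGFBP5+ GJA1- clusters from cows 1 and 3 and the GJA1+ IGFBP5- cluster from cow 1, and the GJA1- state held a cow 1 cluster with GJA1 at 4.89 per 10000. With them, 1, 2 and 3 were lower than in DLK2+ cells for GJA1+ IGFBP5+, IGFBP5+ GJA1- and TOP2A+ cells and 33 were higher for GJA1+ IGFBP5-. GJA1+ IGFBP5+ cells then had 0 of 94 higher or lower than IGFBP5+ GJA1- cells (5 at an unadjusted p under 0.05, both states being found only in cow 3), and 16 higher and 0 of 94 lower than TOP2A+ cells (59 at an unadjusted p under 0.05). In 11 cases clusters also turned the sign of a named gene that was called, 10 of them in the values reported and ND2 in GJA1+ IGFBP5- cells (0.072 as reported) with clusters alone. These were ND1 (-0.011) and ND2 (-0.029) in GJA1+ IGFBP5+ and ND2 (-0.71) in GJA1+ IGFBP5- against DLK2+ cells, ATP5IF1 (-0.061), COX3 (-0.41), COX6A1 (-0.14) and NDUFA4 (-0.12) against IGFBP5+ GJA1- cells, and ATP6 (-0.028), ND1 (-0.018), ND4 (-0.028) and ND5 (-0.090) against TOP2A+ cells. The cause was not tested.

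Leaving out each cow in turn gave 0 to 1 lower members in IGFBP5+ GJA1- and 3 to 7 in TOP2A+ against DLK2+ cells, and 1 to 2 in GJA1+ IGFBP5+ against TOP2A+ cells. Thinned cells gave 2 lower members against IGFBP5+ GJA1- and 1 against TOP2A+ cells. Between the GJA1+ states, 13 members were higher with no filter and 2 with the stricter gate. For mitochondria-poor cells, 1 member was higher with no filter, and 1 was lower with DESeq2 size factors in edgeR, with total counts and with a 1% limit. Leaving out cow 2, whose mitochondria-poor cells were too few for a sum, was not run there. Leaving out cow 1 or 3, or thinning, left no residual degree of freedom.

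Per 10000 UMIs without mitochondrial genes, the nuclear arm was 239, 354, 430.4, 409 and 316 in DLK2+, TOP2A+, GJA1+ IGFBP5+, GJA1+ IGFBP5- and IGFBP5+ GJA1- cells, and the mitochondrial arm was 1715 in GJA1+ IGFBP5- cells. With thinned cells, the latter was 1729 per 10000 of all UMIs, against 1460 as reported. With clusters, the nuclear arm was 337 and the mitochondrial arm 1850.0 in IGFBP5+ GJA1- cells, and the mitochondrial arm 1203 in GJA1+ IGFBP5+ cells, means over different cows (1 and 3, then 2 and 3) that cannot be compared. Over DLK2+ cells of the same cows, the mitochondrial arm of GJA1+ IGFBP5+ cells was higher by 210 with clusters, against 467 with marker states. That of IGFBP5+ GJA1- cells was higher by 693, against 421. Without COX8B the ratio of complex IV was 1.69. Over all settings, the named genes kept their call or lack of one in 2894 cases, lost a call in 310, gained one in 92 and turned in 11. Only sign changes with a call in either setting are counted as turned, and those without any call are among the 2894. Precision rests on 3 cows. COX6B2 and NDUFA12 had few UMIs, with SEs of 0.22 and 0.27.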
